A study of Homo sapiens with 34 samples.

Results

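The 10 genes described here encode the 3 pocket proteins (*RB1*, *RBL1* and *RBL2*), the 5 subunits of the MuvB core (*LIN9*, *LIN37*, *LIN52*, *LIN54* and *RBBP4*) and the transcription factors MYBL2 and FOXM1. They were taken by symbol from 6 tables of gene levels, and each of the 10 was listed in every table, among the 13307 genes that all 6 tables list. The levels came from RNA-seq of 3 human B-ALL cell lines, labelled by their driver fusions: ETV6-PDGFRB in NALM-6, BCR-ABL in BV-173 and MLL-AF4 in RS4;11. In each line, *CCND3* was knocked down with a lentiviral shRNA and compared with a scrambled shRNA in sorted transduced cells on day 4, and 1 µM palbociclib, an inhibitor of the kinases CDK4 and CDK6, was compared with DMSO after 3 days. The 12 groups held 34 samples, 3 in each group except the *CCND3* shRNA group of NALM-6 and the DMSO group of BV-173, which held 2. All groups were bulk cultures of 1 line each, and no primary cells or other B-ALL genotypes enter the comparisons.

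Pocket proteins bind E2F transcription factors and hold back their target genes. Phosphorylation by kinases with D-type cyclins, CDK4 and CDK6 among them, releases E2F from RB1. In resting cells RBL1 or RBL2 joins E2F4, DP1 and the MuvB core to form DREAM, a complex that silences cell-cycle genes. When cells enter the cycle, MuvB leaves the pocket protein and binds MYBL2, and later FOXM1, to switch on the genes of G2 and mitosis. *RBL1*, *MYBL2* and *FOXM1* are themselves transcribed with the cycle, so in bulk samples fewer cycling cells and less RNA per cell cannot be told apart.

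Promoter sequence bears on these genes because E2F and DREAM act through short elements next to the start site. RefSeq promoters (GRCh38.p14) were at hand for 9 of the 10 genes, *FOXM1* being the exception, and for 6 of them the window ended at the annotated start of the gene. For *RB1*, *LIN9* and *LIN54* it ended inside the annotated gene and was not used. The windows of 250 bases before the start were searched on both strands for 4 E2F words and for the CHR element bound by LIN54 (TTTGAA, also read when spelled TTCGAA), which 14.3% of all 35116 promoters hold. The first E2F word searched was TTCCCGC. Another word of this set was TTCGCGC. A further word of the set was TTGCCGC. The last word of the set was TTGGCGC. At least 1 of these words is held by 10.9% of the promoters. Of the 6 windows, those of *RBL1*, *LIN52* and *RBBP4* held an E2F word and none held a CHR. After the sequences had been seen, the E2F core GGCGGGA, held by 13.5% of promoters, was added and was found in these 3 and in *MYBL2*. In *LIN52* the core, 23 to 17 bases before the start, overlaps the E2F word at 24 to 18 and is not a separate site. The 150 bases before the start are shown for *RBL1* and *RBL2*, a pair of paralogs whose levels behaved differently, and for *RBBP4* and *MYBL2*. Capitals mark E2F words and the added core. The core of *RBL1*, 210 to 204 bases before the start, lies outside the bases shown. The coordinates are chr20:37095998-37096147 on the minus strand for *RBL1*, chr16:53434321-53434470 on the plus strand for *RBL2*, chr1:32651058-32651207 on the plus strand for *RBBP4* and chr20:43666964-43667113 on the plus strand for *MYBL2*.
RBL1: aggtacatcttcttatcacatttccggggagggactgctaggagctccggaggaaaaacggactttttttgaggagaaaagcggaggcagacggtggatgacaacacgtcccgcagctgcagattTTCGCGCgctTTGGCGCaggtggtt
RBL2: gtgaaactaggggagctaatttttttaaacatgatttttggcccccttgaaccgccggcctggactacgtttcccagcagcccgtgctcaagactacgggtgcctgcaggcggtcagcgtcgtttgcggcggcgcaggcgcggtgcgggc
RBBP4: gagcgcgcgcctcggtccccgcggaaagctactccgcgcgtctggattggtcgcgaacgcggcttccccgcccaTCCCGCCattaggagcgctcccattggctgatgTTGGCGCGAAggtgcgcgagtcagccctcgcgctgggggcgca
MYBL2: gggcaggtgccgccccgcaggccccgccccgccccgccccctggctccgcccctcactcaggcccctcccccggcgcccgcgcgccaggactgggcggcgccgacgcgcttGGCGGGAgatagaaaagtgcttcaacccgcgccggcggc
The E2F words of *RBL1* lie 25 to 19 and 15 to 9 bases before the start. In *RBBP4* a TTGGCGC on 1 strand and a TTCGCGC on the other overlap between 43 and 34 bases before the start, and the added core lies 76 to 70 bases before it. The core of *MYBL2* lies 39 to 33 bases before the start, and the *RBL2* window holds neither element. A match of letters is a description of the window and not a measured binding site.

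Each table gives 1 level per gene for both groups of a pair, on a scale that is not given in the sources used here, so no spread between samples could be seen and the depth per sample is unknown. The lines were therefore the only repeats of a treatment. For the 11800 genes with a mean level of at least 10, the 6 log2 ratios of treated over control level were fitted with limma. The effect of a treatment is the mean of its 3 log2 ratios. Its standard error (SE) comes from 1 estimate per gene of the spread between lines, which both treatments share. A wide spread with palbociclib therefore also widens the knockdown interval. For *MYBL2* the SD over lines was 0.72 with knockdown and 2.34 with palbociclib, and for *FOXM1* 0.59 and 1.86. An alternative fit with cell line as a block took out differences between lines common to both treatments. A gene was called at a Benjamini-Hochberg adjusted p under 0.1. *CCND3* itself was at 24.2% of the scrambled control in NALM-6, at 20.7% in RS4;11 and at 31.1% in BV-173. Its fall to 25.0% over the lines was the only knockdown effect called among the 11800 genes (limma, adjusted p = 0.0231). The 7 B-lineage markers used, *CD79A* and *PAX5* among them, were listed in all 12 groups with summed levels of 47055 to 74072. Of 8 markers of other blood cells, 4 to 6 were listed per group, with summed levels of 17.1 to 529. *CSF1R* reached 513, *MPO* 68.4, *CD14* 8.76 and the T-cell marker *CD3D* 7.28. The T-cell marker *CD3E* and the erythroid marker *HBB* did not exceed 1.30 in the 4 and 2 groups that listed them. In RS4;11 the B-lineage sum went from 56561 to 74072 with knockdown and from 53843 to 66346 with palbociclib, and with palbociclib the sum over the other blood cells went from 174 to 529 in BV-173, from 17.1 to 74.1 in NALM-6 and from 335 to 293 in RS4;11. The part of these markers in the results below was not tested. The ratios of genes with a level under 10 were less spread than those of genes between 10 and 100 in every comparison (SD 0.236 to 0.796 against 0.462 to 1.18 on the log2 scale). Whether the deposited levels had been moderated by a model is not given in the sources used here, so each log2 ratio is that of the levels as deposited, and ratios of low genes may understate a difference. The lowest level of a member in any group was 88.5.

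The main pattern was unequal. *FOXM1*, *MYBL2*, *RBL1*, *LIN9* and *LIN54* fell with palbociclib to between 7.54% and 42.1% of their control level over the lines, *RBBP4*, *LIN52* and *RB1* fell by smaller amounts, and *RBL2* and *LIN37* were not called. With *CCND3* knockdown these first 5, and also *RBBP4*, *LIN52* and *RB1*, had negative log2 ratios in every line, of smaller size than with palbociclib. The share of all genes with negative ratios in every line was not counted. None of the 10 genes was called over the 3 lines with knockdown.

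**Figure D1:**
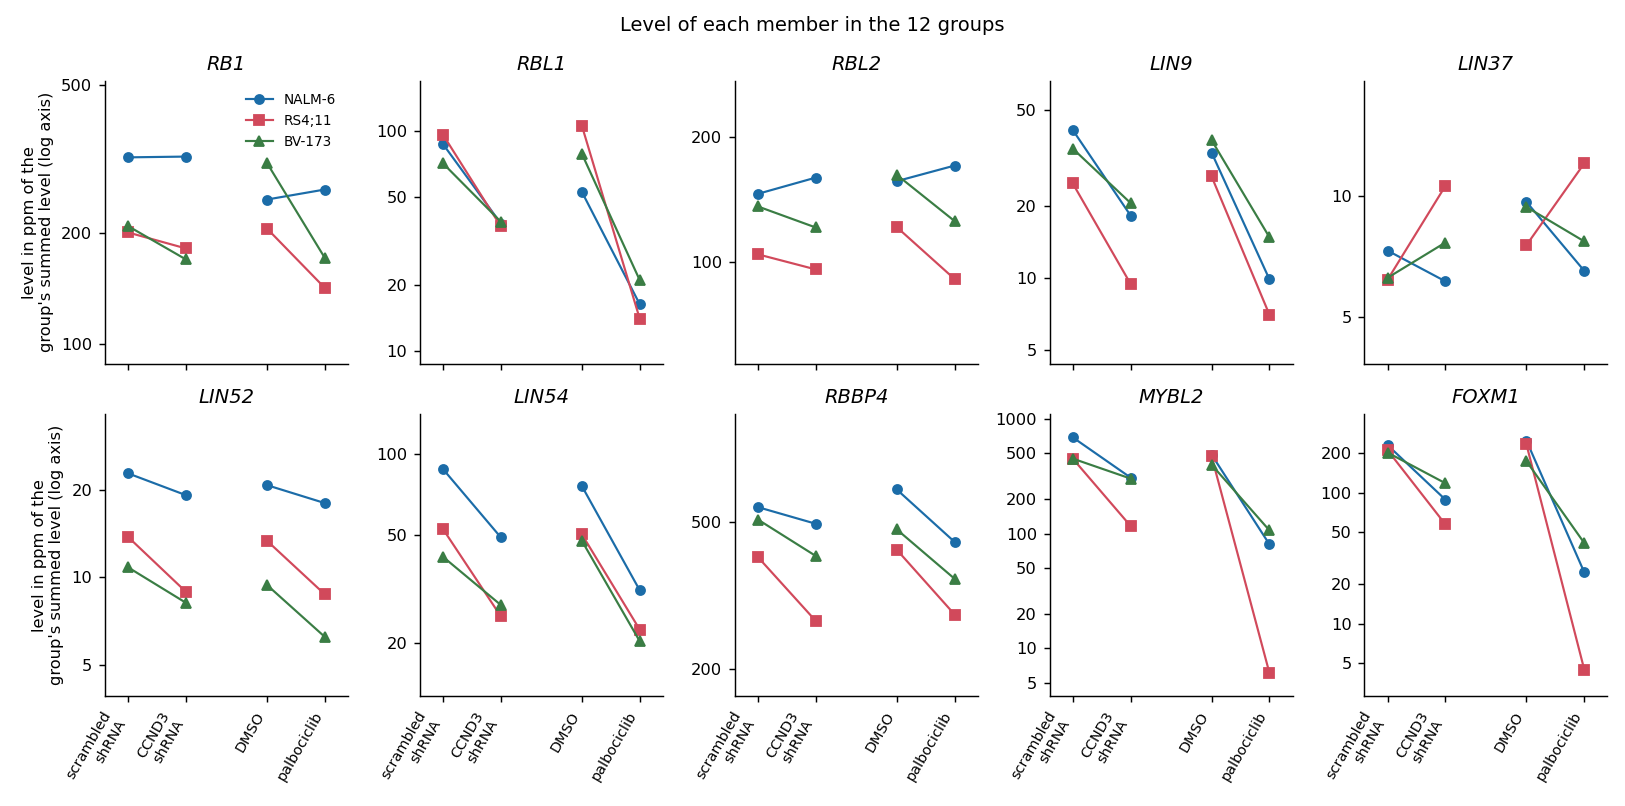
Level of each of the 10 genes in the 12 groups, in ppm of the group's summed level over the genes in all 6 tables (log axis). Each line joins a control group to its treated group in NALM-6 (circles), RS4;11 (squares) or BV-173 (triangles), and the steepest descents are those of *MYBL2* and *FOXM1* in RS4;11 with palbociclib, to 6.09 and 4.46 ppm.

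*RB1* (NCBI gene 5925, chromosome 13, 48303751 to 48481890 in GRCh38.p14) encodes the retinoblastoma protein. Its level with scrambled and *CCND3* shRNA was 5820 and 5753 in NALM-6, 3790 and 3505 in RS4;11, and 4021 and 3505 in BV-173. The knockdown group was at 98.8%, 92.5% and 87.2% of its control, so *RB1* mRNA was within 1.15-fold of the control in each line. With DMSO and palbociclib the level was 4761 and 4633 in NALM-6, 4034 and 2808 in RS4;11, and 5929 and 3429 in BV-173. Here the lines differed, from 97.3% of control in NALM-6 to 57.8% in BV-173. Over the lines *RB1* fell by 0.45 on the log2 scale with palbociclib (SE 0.16, limma adjusted p = 0.0732), while the knockdown effect of −0.11 (SE 0.16, adjusted p = 0.746) was not called. The palbociclib call was lost without RS4;11 (−0.41, adjusted p = 0.301) and without BV-173 (−0.28, adjusted p = 0.287). In NALM-6 the direction depended on the scale: in ppm of the summed level *RB1* was slightly higher with palbociclib, at 261 against 246. The same held with knockdown, at 321 against 319.

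*RBL1* (NCBI gene 5933, chromosome 20, 36996349 to 37095997) encodes the pocket protein whose own gene is an E2F target. In cells with scrambled and *CCND3* shRNA its level was 1595 and 681 in NALM-6, 1829 and 713 in RS4;11, and 1381 and 802 in BV-173. Every knockdown group was below its control, at 42.7%, 39.0% and 58.1% of it. In DMSO and palbociclib it was 1026 and 288 in NALM-6, 2087 and 277 in RS4;11, and 1520 and 421 in BV-173. These are 28.1%, 13.2% and 27.7% of control, lower than with knockdown in each line. With palbociclib *RBL1* fell by 2.20 on the log2 scale, a 4.60-fold decrease (SE 0.24, limma adjusted p = 0.00367). The knockdown effect of −1.12 (SE 0.24, 95% interval −1.69 to −0.56) missed the threshold at an adjusted p of 0.107 and passed it with cell line as a block, at 0.0316.

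*RBL2* (NCBI gene 5934, chromosome 16, 53434471 to 53491648) encodes the pocket protein that is most abundant in resting cells. Scrambled and *CCND3* shRNA groups had levels of 2656 and 2860 in NALM-6, 1972 and 1853 in RS4;11, and 2626 and 2505 in BV-173. The 3 ratios lay on both sides of 1, and the effect was −0.02 (SE 0.12, 95% interval −0.31 to 0.28, limma adjusted p = 0.955). The DMSO and palbociclib groups had levels of 3031 and 3022 in NALM-6, 2384 and 1799 in RS4;11, and 3117 and 2517 in BV-173. The palbociclib groups of RS4;11 and BV-173 were at 75.5% and 80.8% of control, and that of NALM-6 at 99.7%. In ppm of the summed level, *RBL2* in NALM-6 was higher with palbociclib, at 171 against 156. The palbociclib effect of −0.24 (SE 0.12, 95% interval −0.53 to 0.05) was not called (limma adjusted p = 0.186), but was called with cell line as a block (adjusted p = 0.0908).

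Compared per kb of transcript, *RBL2* exceeded *RBL1* in all 12 groups, and the ratio of the 2 levels was higher in each treated group than in its control. With scrambled shRNA the *RBL2* level was 2.05, 1.37 and 2.39 times that of *RBL1* in the order NALM-6, RS4;11, BV-173, and with *CCND3* shRNA 5.18, 3.29 and 3.93 times. With DMSO it was 3.67, 1.43 and 2.57 times, and with palbociclib 13.0, 8.15 and 7.49 times. The 2 control groups of NALM-6 differed (2.05 and 3.67), those of the other lines by less. A ratio within a group does not depend on how the group was scaled, and it was not tested separately from the effects of the 2 genes.

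**Figure D2:**
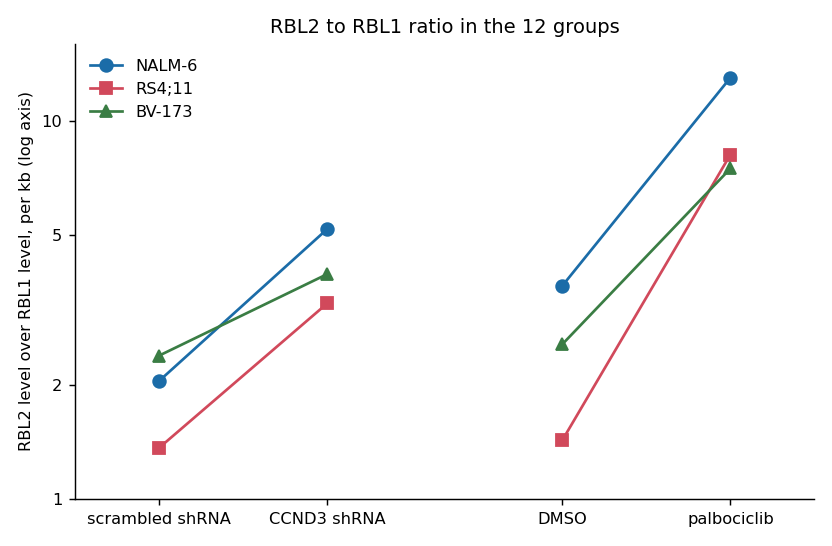
Ratio of the *RBL2* level to the *RBL1* level, each per kb of transcript, in the 12 groups (log axis). Lines join a control group to its treated group in NALM-6 (circles), RS4;11 (squares) and BV-173 (triangles), and the ratio is higher after each of the 6 treatments, up to 13.0 in NALM-6 with palbociclib.

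Among the MuvB subunits, *LIN9* and *LIN54* fell most. *LIN9* (NCBI gene 286826, chromosome 1, 226231149 to 226309767) encodes a scaffold subunit needed for the activation of mitotic genes. For scrambled and *CCND3* shRNA the level was 755 and 326 in NALM-6, 469 and 182 in RS4;11, and 669 and 425 in BV-173. Each knockdown group was below its control, at 43.2%, 38.9% and 63.5% of it. Under DMSO and palbociclib the level was 645 and 174 in NALM-6, 521 and 139 in RS4;11, and 722 and 296 in BV-173. The palbociclib groups were at 27.0%, 26.6% and 41.0% of control. With palbociclib *LIN9* fell by 1.69 on the log2 scale (SE 0.19, limma adjusted p = 0.00391). The knockdown effect of −1.08 (SE 0.19, 95% interval −1.52 to −0.63) had an adjusted p of 0.102, and of 0.0239 with cell line as a block.

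*LIN54* (NCBI gene 132660, chromosome 4, 82924603 to 83012941) encodes the subunit that binds DNA at CHR elements. The scrambled and *CCND3* shRNA groups were at 1597 and 878 in NALM-6, 996 and 484 in RS4;11, and 802 and 571 in BV-173. The level with DMSO and with palbociclib was 1470 and 553 in NALM-6, 989 and 443 in RS4;11, and 916 and 406 in BV-173. The palbociclib ratios of the lines were alike, at 37.6%, 44.8% and 44.4% of control, whereas the knockdown groups ranged from 48.6% in RS4;11 to 71.1% in BV-173. With palbociclib *LIN54* fell 2.37-fold over the lines (SE 0.14 on the log2 scale, limma adjusted p = 0.00392). Its knockdown effect was −0.80 (SE 0.14, 95% interval −1.13 to −0.47), with an adjusted p of 0.102, or 0.0344 with cell line as a block.

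*LIN52* (NCBI gene 91750, chromosome 14, 74084956 to 74201493) encodes the subunit whose phosphorylation by DYRK1A allows MuvB to join a pocket protein. Levels with scrambled and *CCND3* shRNA were 414 and 343 in NALM-6, 260 and 172 in RS4;11, and 209 and 169 in BV-173. DMSO and palbociclib levels were 401 and 318, 263 and 173.1, and 181 and 125 in the same order of lines. All 6 treated groups were below their own control, at 65.9% to 82.8% of it. With palbociclib *LIN52* fell by 0.49 on the log2 scale (SE 0.12, limma adjusted p = 0.0270), and the call was lost without RS4;11 (−0.43, adjusted p = 0.167) or without BV-173 (−0.47, adjusted p = 0.110), with effects of nearly the same size. The knockdown effect of −0.39 (SE 0.12) had an adjusted p of 0.153, and of 0.0682 with cell line as a block.

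*RBBP4* (NCBI gene 5928, chromosome 1, 32651208 to 32686211) encodes a histone-binding protein that MuvB shares with several chromatin complexes. Its level with scrambled and *CCND3* shRNA was 9969 and 8843 in NALM-6, 7596 and 5216 in RS4;11, and 9784 and 8367 in BV-173. For DMSO and palbociclib it was 11830 and 7805 in NALM-6, 8259 and 5560 in RS4;11, and 9164 and 7039 in BV-173. The treated groups were at 66.0% to 88.7% of their own control. With palbociclib *RBBP4* fell by 0.52 on the log2 scale (SE 0.12, limma adjusted p = 0.0234), a call that was lost without NALM-6 (−0.48, adjusted p = 0.128) or RS4;11 (−0.49, adjusted p = 0.137), again at nearly the same size. The knockdown effect was −0.31 (SE 0.12, adjusted p = 0.225).

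*LIN37* (NCBI gene 55957, chromosome 19, 35748576 to 35754519) encodes a subunit required for repression by DREAM, and its level per kb was the lowest of the 10 genes in 5 of the 6 control groups. The level with scrambled and *CCND3* shRNA was 133 and 110 in NALM-6, 117 and 205 in RS4;11, and 121 and 159 in BV-173. With DMSO and palbociclib it was 187 and 115 in NALM-6, 148 and 238 in RS4;11, and 180 and 155 in BV-173. The lines did not share a direction: RS4;11 was at 175% and 161% of control with knockdown and palbociclib, and NALM-6 at 82.5% and 61.6%. Neither effect was called, with 0.31 for knockdown (SE 0.29, 95% interval −0.39 to 1.01, limma adjusted p = 0.606) and −0.08 for palbociclib (SE 0.29, 95% interval −0.78 to 0.62, adjusted p = 0.859).

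*MYBL2* (NCBI gene 4605, chromosome 20, 43667114 to 43716482) encodes B-MYB, the factor that binds MuvB in S phase. Under scrambled and *CCND3* shRNA the level was 12578 and 5516 in NALM-6, 8539 and 2256 in RS4;11, and 8703 and 6250 in BV-173. The knockdown groups were at 43.9%, 26.4% and 71.8% of control, a wide spread between the lines. The DMSO and palbociclib groups were at 9442 and 1428 in NALM-6, 9279 and 121 in RS4;11, and 7668 and 2143 in BV-173. The palbociclib groups were far apart, at 15.1%, 1.30% and 27.9% of their control. With palbociclib *MYBL2* fell by 3.61 on the log2 scale, a 12.2-fold decrease (SE 0.77, limma adjusted p = 0.0171). The size rested on RS4;11: without that line the effect was −2.28 (adjusted p = 0.0286). The knockdown effect of −1.20 (SE 0.77, 95% interval −3.02 to 0.63) was not called (adjusted p = 0.431, or 0.159 with cell line as a block).

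*FOXM1* (NCBI gene 2305, chromosome 12, 2857680 to 2877174) encodes the factor that joins MYBL2 and MuvB at mitotic genes in G2. The level with scrambled and *CCND3* shRNA came to 4213 and 1589 in NALM-6, 4004 and 1110 in RS4;11, and 3918 and 2450 in BV-173. The knockdown groups were at 37.7%, 27.7% and 62.5% of their control. In DMSO and palbociclib the level was 4844 and 437 in NALM-6, 4606 and 88.5 in RS4;11, and 3355 and 830 in BV-173. As for *MYBL2*, RS4;11 was lowest, with 1.92% of control left, against 9.02% in NALM-6 and 24.7% in BV-173. With palbociclib *FOXM1* fell by 3.73 on the log2 scale, a 13.3-fold decrease (SE 0.62, limma adjusted p = 0.00808), and without RS4;11 it fell by 2.74 (adjusted p = 0.0296). The knockdown effect of −1.31 (SE 0.62, 95% interval −2.77 to 0.15) had an adjusted p of 0.293, and of 0.0870 with cell line as a block.

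**Figure D3:**
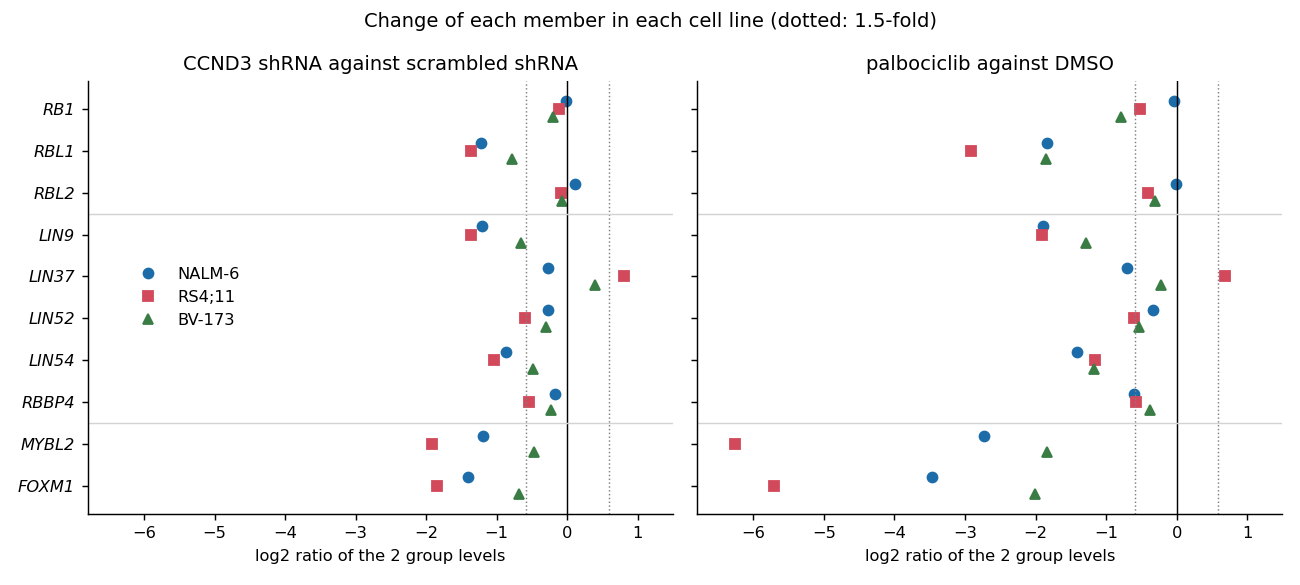
Log2 ratio of treated over control level for each of the 10 genes in NALM-6 (circles), RS4;11 (squares) and BV-173 (triangles), with *CCND3* knockdown on the left and palbociclib on the right, and dotted lines at a 1.5-fold difference. The ratios of *MYBL2* and *FOXM1* reach −6.26 and −5.70 in RS4;11 with palbociclib, and *LIN37* is the only gene with ratios past 1.5-fold on both sides.

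Within single lines the group levels allow no test, and the authors' p-values were not used. The 10 genes were counted past a 1.5-fold difference between the 2 group levels. They were read against all genes of the table with a mean level of at least 10. With *CCND3* knockdown, 5 were lower and 0 higher in NALM-6, where 10.4% of all genes were lower and 8.55% higher. In RS4;11 6 were lower and 1, *LIN37*, was higher, beside 11.3% and 10.4% of all genes, and in BV-173 3 were lower (*RBL1*, *LIN9* and *FOXM1*) and 0 higher, beside 5.39% and 4.05%. With palbociclib, 7 were lower and 0 higher in NALM-6 (17.6% and 18.8% of all genes), 6 lower and *LIN37* higher in RS4;11 (16.5% in either direction), and 6 lower and 0 higher in BV-173 (14.3% and 14.6%). *RBL1*, *LIN9* and *FOXM1*, 3 of the 10, were past 1.5-fold lower in all 6 comparisons, beside 1.79% of the genes tested. The median log2 ratio of the 10 genes was −0.57, −0.82 and −0.39 with knockdown and −1.05, −0.88 and −0.98 with palbociclib, in the order NALM-6, RS4;11, BV-173, while the median of all genes was −0.02 or nearer to 0 each time. RS4;11 gave the lowest ratio of the 3 lines for 8 of the 10 genes with knockdown and for 6 with palbociclib, against 35.6% and 34.2% of all genes tested.

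In ppm of the group's summed level, the 6 treated groups lay below all 6 controls, with no overlap, for 4 of the 10 genes: *RBL1*, *LIN9*, *MYBL2* and *FOXM1*. This held for 3.25% of the 11800 genes tested. The *MYBL2* controls ranged from 398 to 690 ppm and its treated groups from 6.09 to 308. The *FOXM1* controls ranged from 174 to 250 ppm and its treated groups from 4.46 to 118. The *RBL1* controls began at 53.0 ppm, above the highest treated group at 38.7, and those of *LIN9* began at 24.8, above 20.5. The other 6 genes overlapped.

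The order of the genes by level per kb changed with treatment. This order takes the deposited levels as not already divided by length, which is not given in the sources used here. *MYBL2* had the highest level per kb in all 6 control groups, from 2756 to 4523, and *LIN37* or *LIN52* the lowest. *MYBL2* stayed first in the 3 knockdown groups, whereas with palbociclib *RBBP4* was first in each line and *MYBL2* was at place 2 in BV-173, place 4 in NALM-6 and place 9 in RS4;11. As deposited, *RBBP4* was above *MYBL2* in NALM-6 DMSO (11830 against 9442), BV-173 DMSO (9164 against 7668) and BV-173 scrambled shRNA (9784 against 8703). *RBBP4* was below *MYBL2* in the other control groups and above it in every knockdown group. *FOXM1* was at places 2 to 4 in the controls and at places 6 (NALM-6), 10 (RS4;11) and 5 (BV-173) with palbociclib. Between the 2 control groups of a line the order was the same in RS4;11. In NALM-6 *RB1* and *FOXM1* changed places, as did *RBL1* and *LIN52*, and in BV-173 *RB1* moved above *RBBP4* and *FOXM1*, and *LIN37* above *LIN52*.

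Over the 3 lines limma called 8 of the 10 genes lower with palbociclib, where 20.4% of the 11800 genes were called lower. With cell line as a block 9 were called lower, *RBL2* being added, beside 26.6% of all genes. For *CCND3* knockdown limma called 0 of the 10, and among all genes 0.00847% (*CCND3* alone) were called lower. At an unadjusted p under 0.05 the knockdown effects of *RBL1*, *LIN9*, *LIN52*, *LIN54* and *RBBP4* passed, 5 of 10, beside 19.9% of all genes. With cell line as a block 5 of 10 were called lower (*RBL1*, *LIN9*, *LIN52*, *LIN54* and *FOXM1*) beside 10.8%, and 3 (*RBL1*, *LIN9* and *LIN54*) when a trend of the variance with the level was fitted or genes under a mean level of 100 were left out. The knockdown calls thus differed between these fits, while the effects themselves were the same. The median effect of the 10 genes was −0.59 with knockdown and −0.88 with palbociclib, and that of all genes 0.00 and 0.01.

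**Figure D4:**
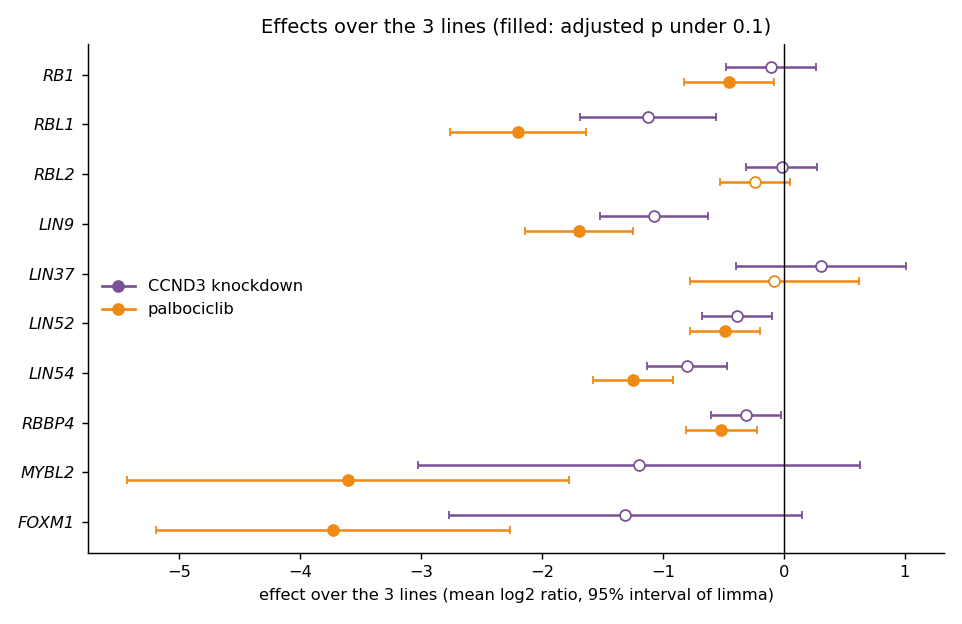
Effect of each treatment on the 10 genes over the 3 lines (mean log2 ratio) with its 95% interval from limma, where filled points were called at an adjusted p under 0.1. The 8 called palbociclib effects run from −0.45 for *RB1* to −3.73 for *FOXM1*, and the intervals of *MYBL2* and *FOXM1* are the widest.

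The 2 treatments differ in agent and in time, 4 days after transduction against 3 days of inhibitor, and had separate controls. In every line the knockdown ratio was above the palbociclib ratio for all 10 genes, which held in all 3 lines for 26.9% of the genes tested. Some of these differences were close to 0: 0.006 for *LIN52* and 0.03 for *RBBP4* in RS4;11, and 0.02 for *RB1* in NALM-6. Without a spread between samples, the sign of such small differences is uncertain. Subtracting the palbociclib effect from the knockdown effect left 2.42 for *FOXM1* (95% interval 0.35 to 4.49), 2.41 for *MYBL2* (−0.17 to 5.00), and 1.08 for *RBL1* (0.28 to 1.87). It was 0.62 for *LIN9* and 0.45 for *LIN54*, with intervals that reached just below 0. For *RB1*, *RBL2*, *LIN52*, *LIN37* and *RBBP4* it was 0.10 to 0.38, and the intervals included 0. limma called the difference for 0 of the 10 genes and for 0 of all genes. At an unadjusted p under 0.05, *RBL1* and *FOXM1* passed, 2 of 10, beside 13.3% of all genes. With cell line as a block it also called 0 of the 10 genes, beside 1.05% of all genes lower and 2.08% higher, and the smallest adjusted p of the 10 was 0.109, for *RBL1*.

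The direct partners and paralogs of these proteins split in the same data. Of 11 genes, palbociclib lowered 6 and raised 1, beside 20.4% and 18.2% of all genes. *E2F1* and *E2F2*, the activating E2Fs, both fell, with effects of −2.74 (SE 0.46, limma adjusted p = 0.00865) and −2.84 (SE 0.29, adjusted p = 0.00356). *E2F3* (effect 0.00, adjusted p = 0.991), *E2F4*, the E2F of DREAM (0.21, adjusted p = 0.302), and *E2F5* (0.50, adjusted p = 0.179) were not called, although *E2F5* was called higher with cell line as a block (adjusted p = 0.0233), as were 26.1% of all genes. Of the genes for E2F dimer partners, *TFDP1* fell by 0.72 (adjusted p = 0.0297) and *TFDP2* rose by 0.98 (adjusted p = 0.0637). *DYRK1A*, the LIN52 kinase, fell by 0.52 (adjusted p = 0.0283). Among paralogs of the members, *RBBP7* fell by 1.22 (adjusted p = 0.00600), more than *RBBP4*, and *MYBL1* fell by 2.78 (adjusted p = 0.0126), while *MYB* was not called (−0.12, adjusted p = 0.796). With knockdown 0 of the 11 were called, and with cell line as a block *E2F1*, *E2F2*, *TFDP1*, *RBBP7* and *MYBL1* were lower and *E2F5* higher, beside 10.8% and 8.97% of all genes. The median effect of the 11 genes was −0.30 with knockdown and −0.52 with palbociclib.

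Upstream of the pocket proteins, 10 genes for cyclins, kinases and inhibitors were tested. With knockdown, *CCND3* was called and the other 9 were not. With cell line as a block *CCNE1*, *CCNE2* and *CDK2* were called lower too (limma adjusted p = 0.0496, 0.0624 and 0.0257) and *CCND1* higher (adjusted p = 0.0853), beside 10.8% and 8.97% of all genes. With palbociclib *CCNE2* fell by 2.78 and *CDK2* fell by 2.03 on the log2 scale (limma adjusted p = 0.0157 and 0.00461), and *CCND3* fell by 0.35, just inside the threshold, beside 20.4% of all genes called lower and 18.2% higher. Cyclin and kinase genes that rose were *CCND2* (2.09, adjusted p = 0.00710), *CCND1* (1.37, adjusted p = 0.0893) and *CDK6* (0.55, adjusted p = 0.0703). *CCND1* was at levels of 1.23 to 6.25 in every group of NALM-6 and BV-173 and passed the level filter through RS4;11 (112 to 787), and *CCND2* did not exceed 4.69 in RS4;11, so these mean ratios rest in part on lines with levels under 10. *CDK4*, *CCNE1*, *CDKN1A* and *CDKN1B* were not called (effects −0.29, −0.38, −0.66 and −0.54), but with cell line as a block all 4 were called lower (adjusted p from 0.0454 to 0.0976), beside 26.6% of all genes. The median effect of the list was −0.27 with knockdown and −0.36 with palbociclib.

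Genes that DREAM silences and that MuvB with MYBL2 and FOXM1 activates fell together with palbociclib. Of 21 G1/S genes, which act in DNA replication, all 21 fell with palbociclib, beside 20.4% of all genes, with a median effect of −2.27 on the log2 scale. The largest falls were those of *CDT1*, a licensing factor (effect −3.96, limma adjusted p = 0.00520), *TYMS*, thymidylate synthase (−3.45, adjusted p = 0.0132), and *CDC45*, a helicase subunit (−3.45, adjusted p = 0.0125). The smallest was that of *SLBP*, which binds histone mRNA (−1.13, adjusted p = 0.00838). Of 23 G2/M genes all 23 fell, with a median of −3.62. The kinesin gene *KIF20A* fell by 4.28 (adjusted p = 0.0155), the kinase gene *NEK2* fell by 4.26 (adjusted p = 0.00639) and the proliferation marker *MKI67* fell by 4.21 (adjusted p = 0.0130). *CCNF*, the gene for cyclin F, fell least, with an effect of −2.10 (adjusted p = 0.00405). In RS4;11 *MKI67* was at 0.700% and *KIF20A* at 0.595% of the DMSO level, below the 1.30% of *MYBL2* and the 1.92% of *FOXM1*.

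With knockdown 0 genes of either target list were called, although all 21 and all 23 effects were negative, with medians of −1.15 and −1.14. With cell line as a block 19 of the 21 and 9 of the 23 were called lower, *SLBP*, *CDT1*, *TYMS*, *CDC45* and *CCNF* among them (adjusted p from 0.0424 to 0.0813), beside 10.8% of all genes. The median log2 ratio of the G1/S genes with knockdown was −1.10 for NALM-6, −1.77 for RS4;11 and −0.51 for BV-173, and that of the G2/M genes was −1.37, −1.59 and −0.52. With palbociclib the same medians were −2.26, −2.97 and −1.41 for G1/S and −3.22, −5.58 and −1.95 for G2/M. The order of the lines, RS4;11 lowest and BV-173 highest, was also that of *RBL1*, *LIN9*, *LIN54*, *MYBL2* and *FOXM1* with knockdown, and of *LIN9*, *MYBL2* and *FOXM1* with palbociclib. The target lists were written with earlier results of these data known, so their direction is a description and not independent evidence.

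**Figure D5:**
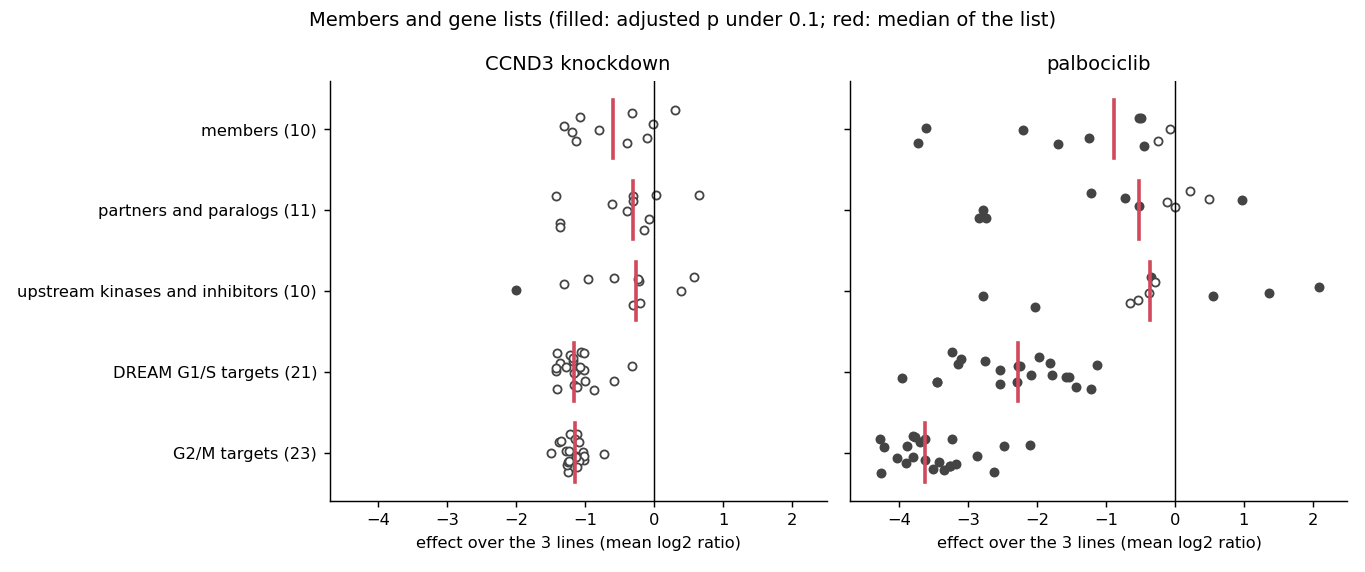
Effects over the 3 lines (mean log2 ratio) of the 10 genes and of 4 lists of related genes, with *CCND3* knockdown on the left and palbociclib on the right. Filled points were called at an adjusted p under 0.1 and red bars are list medians. All G1/S and G2/M genes lie below 0 with both treatments, with medians of −2.27 and −3.62 for palbociclib.

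The genes whose 6 log2 ratios were closest to those of a member were taken from 10074 genes with a mean level of at least 100, by Euclidean distance. For *RBL1* they were *SASS6*, *MTBP* and *C1orf112* (distances 0.38, 0.41 and 0.45 on the log2 scale), with *SASS6* at −1.01, −1.52 and −0.77 with knockdown and −1.75, −3.12 and −1.70 with palbociclib. For *MYBL2* they were *SKA3*, *PKMYT1* and *PCLAF* (0.37, 0.40 and 0.45), and for *FOXM1* *MELK*, *ESPL1* and *CCNA2* (0.27, 0.29 and 0.33). For *RBL2* they were *LRRC57*, *SETD1A* and *FBXO30* (0.13, 0.14 and 0.15), whose lowest ratio was −0.39. *MYBL2* and *FOXM1* lay 1.00 apart from each other, farther than from any of these neighbours. Only 6 ratios enter each distance.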

How the data were processed

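RNA-seq levels of 10 genes were read from 6 tables covering 34 samples in 12 groups (3 cell lines with *CCND3* or scrambled shRNA, palbociclib or DMSO), grouped as the labels state. According to the series' design text and the submitters' processing notes, clean reads (SOAPnuke) were mapped by the authors with Bowtie2, gene levels came from RSEM, DESeq2 was their test between groups, and the build was hg38. Tool versions are not given in the sources used here. The deposited signal is 1 level per gene and group, with both groups of a pair in a table, without replicates or counts and on a scale that is not given in the sources used here. The columns with the authors' log2 fold changes, p-values and calls were not used. Each table also gives a transcript length, used for levels per kb, which takes the levels as not already divided by length.

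Log2 ratios of the 2 group levels were computed with a pseudocount of 0. Genes listed in all 6 tables with a mean level of at least 10 (11800) were fitted with limma 3.58.1 (R 4.3.3), with 1 coefficient per treatment, 4 residual degrees of freedom and empirical Bayes (2.86 prior degrees of freedom), and p-values were adjusted by Benjamini-Hochberg over all of them. Lines served as repeats because only group levels were used. The p-values of the fit reported measure the spread between 3 lines, estimated jointly for both treatments, and hold no sample-level precision. Those with cell line as a block do not measure the full spread between lines. They leave out the differences between lines that both treatments share and have fewer residual degrees of freedom. Levels of different tables were compared in ppm of the summed level of the genes in all 6 tables, and ranges of levels over groups are as deposited. The fit was tested on simulated data with equal spread in both treatments and no differences between lines common to both. It was not tested under unequal spread or with such differences. Alternatives were cell line as a block, other level filters, thresholds and pseudocounts, a variance trend, centring, and leaving out each line. The E2F core and the count at unadjusted p under 0.05 were chosen after seeing the data.

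The named genes were all 10 members, *CCND3*, every partner and paralog, the 3 genes with the largest and the 1 with the smallest absolute palbociclib effect in each target list, and the 3 genes nearest in pattern to *RBL1*, *RBL2*, *MYBL2* and *FOXM1* over the 6 log2 ratios. Genes of the upstream list outside this rule were named after their values were seen. A further marker of the B-lineage list is not reported here. The members and lists were chosen with earlier results of these data known. Positions are those of RefSeq (GRCh38.p14), and promoters were taken from its 250 bases before each start. Tables and figures were made with pandas 2.3.3, numpy 2.4.6 and matplotlib 3.10.9 under Python 3.11.15.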

Additional observations from a re-analysis of the deposited data

Results flagged for a closer look

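With palbociclib, *LIN37* differed in direction between cell lines. Its log2 ratio to DMSO was −0.70 in NALM-6 and 0.69 in RS4;11, each past 1.5-fold and in opposite directions. The difference between the lines was not tested, since each line gives 1 level per group. *LIN37* had levels of 115 to 238 in these 4 groups.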

How the results depend on the processing

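The effects rest on 3 lines with 1 level per group. No paired analysis was possible because each group has 1 level and its column carries no replicate number. For *CCND3* knockdown, the 10 genes had 0 calls in the fit reported, 5 with cell line as a block and 3 each with a mean level of at least 100 or a variance trend. Calls among all genes went from 1 to 2328, 803 and 691 in these fits, and to 0 when any 1 line was left out. For palbociclib 8 of the 10 genes were called, and 5 to 7 with a line left out, the lowest without RS4;11. Calls among all genes went from 4555 to between 2039 (without RS4;11) and 3617 with a line left out, 2520 without NALM-6. The difference between treatments was called for 0 of all genes and for 369 with cell line as a block. In BV-173 with knockdown, 3 of the 10 genes were past 1.5-fold, 6 past a looser threshold set between 1 and 1.5-fold, and 0 past 2-fold. With a line left out, the *RBL2* knockdown effect ranged from −0.079 to 0.019 and turned without RS4;11 or BV-173, and the *LIN37* palbociclib effect ranged from −0.46 to 0.23 and turned without NALM-6. Neither was called in any of these fits. The causes were not tested. Of 300 checks on single genes, 278 were rated the same, 12 passed the threshold only in the alternative, 7 lost it and 3 turned in direction. Checks by the median of the 3 log2 ratios had no p-value. They were rated the same when the median kept the sign and lay within the SD over lines of the mean. With a block, another level filter, a variance trend or a stricter threshold, only the p-value or the call could change and not the effect.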
